A study of Mus musculus with 6 samples.

Results

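Gzmc-positive T cells were examined in single-cell RNA sequencing of CD45-positive cells sorted from whole mouse skin. A kept barcode counted as a member when it held at least 2 UMIs (unique molecular identifiers, 1 per captured transcript) of Cd3d, Cd3e and Cd3g together and at least 2 UMIs of Gzmc, fewer than 2 UMIs of the Ly49 genes Klra1, Klra3, Klra7, Klra8 and Klra9, no UMI of Foxp3, Cd8b1, Tcrg-V4 or Tcrg-V6, and at most 2 UMIs of C1qa, C1qb, C1qc and Cd207. Of 18971 kept cells in 3 libraries, 399 met the rule, 185 of 9206 in the alopecia library, 72 of 3278 in the no-alopecia library and 142 of 6487 in the wild-type library. The genes of the rule chose the cells and are given as description only.

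Each library was 1 group of female mice of 17 to 18 weeks without treatment. UP_Del mice, which lack an enhancer upstream of Il2ra (the gene of the interleukin 2 receptor alpha chain), gave 2 groups, mice with alopecia and mice without it. C57BL/6 wild-type mice gave the third, and the strain entry of the labels reads C57/BL6 for all 3. The labels name no cell type to which the deletion is limited, and the number of mice behind a library is not stated in the labels. With 1 library per group, group and library cannot be told apart, no difference between groups has a replicate check, and the 95% intervals below (exact Clopper-Pearson for shares, exact Poisson for levels, exact conditional binomial for ratios) cover counting error only.

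Granzymes are serine proteases that cytotoxic lymphocytes release together with perforin, the pore former encoded by Prf1, and mouse Gzmc lies in a cluster with Gzmb and its relatives on chromosome 14. The T-cell receptor is an alpha-beta or a gamma-delta heterodimer, its chains each built from a rearranged V segment and a constant region, and it signals through the Cd3 chains and Cd247. Mouse epidermis is home to gamma-delta T cells with a nearly invariant receptor, the dendritic epidermal T cells, whose gamma chain uses Tcrg-V5 and whose delta chain uses Trdv4. Interleukin 2 and interleukin 15 share the receptor chains Il2rb and Il2rg, and Il2ra adds affinity for interleukin 2.

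The gamma V exons that the members used are shown because a read can be placed among them only where they differ. In the GENCODE annotation of GRCm38 (mm10) the V exon of Tcrg-V5 lies at chr13:19192428-19192725 on the plus strand, that of Trgv2 at chr13:19336573-19336879 on the minus strand, and that of Tcrg-V1 at chr13:19340151-19340454 on the plus strand. Each is printed 5′ to 3′ in its own transcript's direction, up to its first 300 bases, and capitals in Tcrg-V1 mark its bases that differ from Trgv2.
Tcrg-V5: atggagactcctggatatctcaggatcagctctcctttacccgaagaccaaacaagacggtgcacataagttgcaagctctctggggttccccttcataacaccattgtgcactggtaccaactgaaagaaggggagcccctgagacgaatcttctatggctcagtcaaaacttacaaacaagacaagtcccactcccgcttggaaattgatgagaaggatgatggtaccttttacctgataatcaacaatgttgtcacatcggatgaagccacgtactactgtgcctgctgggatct
Trgv2: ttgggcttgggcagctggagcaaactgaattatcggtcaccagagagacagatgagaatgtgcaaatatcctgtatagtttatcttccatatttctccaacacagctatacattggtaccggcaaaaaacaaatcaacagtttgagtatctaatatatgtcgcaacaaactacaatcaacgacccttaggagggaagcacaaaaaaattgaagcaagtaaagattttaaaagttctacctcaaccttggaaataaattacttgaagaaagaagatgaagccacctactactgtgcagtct
Tcrg-V1: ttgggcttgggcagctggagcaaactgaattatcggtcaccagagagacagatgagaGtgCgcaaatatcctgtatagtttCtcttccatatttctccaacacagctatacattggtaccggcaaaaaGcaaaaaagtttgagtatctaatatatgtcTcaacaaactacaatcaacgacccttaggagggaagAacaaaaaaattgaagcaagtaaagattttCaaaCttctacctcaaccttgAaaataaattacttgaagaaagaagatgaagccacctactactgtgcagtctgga
Trgv2 and Tcrg-V1 were identical at 293 of 307 aligned positions (95.4%), with a longest shared run of 57 bases. Tcrg-V3, not printed, was 94.5% identical to Trgv2 and 96.1% identical to Tcrg-V1. Counts of these 3 genes could be split or exchanged between them, so they are pooled below where it matters. Tcrg-V5 was 56.1% identical to Trgv2 over 321 aligned columns and shared no run above 11 bases with it.

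The alopecia, no-alopecia and wild-type libraries held 50057357, 20116378 and 38407339 UMIs in 9610, 3340 and 6702 barcodes. Members had medians of 5235, 5663.5 and 5537.5 UMIs and 2041, 2160.5 and 2022.5 genes in the alopecia, no-alopecia and wild-type libraries, above the medians of all kept cells in the same libraries (4157, 4855.5 and 4573 UMIs). Between 34 and 87 barcodes were shared by 2 libraries, and no shared barcode was a member in both. A doublet score marked 14 of 185 members in the alopecia library, 1 of 72 in the no-alopecia library and 10 of 142 in the wild-type library (7.57%, 1.39% and 7.04%, against 3.85%, 1.34% and 2.68% of the kept cells), and these cells were left in.

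Gzmc was spread widely among the members. In the alopecia library a member held from 2 to 648 Gzmc UMIs with a median of 15, in the no-alopecia library up to 436 with a median of 13, and in the wild-type library up to 508 with a median of 13.5. Members with at least 10 Gzmc UMIs made up 56.8%, 56.9% and 54.2% of the members of the alopecia, no-alopecia and wild-type libraries. Levels below are CPM (a UMI count scaled to the same total for each population), the UMIs of a gene in all cells of 1 population of a library over the total of those cells, and on that scale Gzmc stood at 7106 CPM in alopecia members, 7881 CPM in no-alopecia members and 6578 CPM in wild-type members. Members carried 13.2%, 19.0% and 16.1% of all Gzmc UMIs of those libraries. Cells without any Cd3 UMI carried 48.2%, 44.6% and 38.0%, so Gzmc was not limited to cells with a detected Cd3 transcript. Whether those cells were T cells whose Cd3 transcripts went uncaptured was not tested. The cells just outside the threshold, with 1 Gzmc UMI, numbered 78, 28 and 64, and the cells just inside it, with 2, numbered 25, 7 and 27. Xcl1 stood at 443, 747 and 445 CPM just outside and at 1006, 442 and 995 CPM just inside.

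The name T cell was checked against genes that the rule did not use, and it held in part. Members with 2 or 3 Gzmc UMIs (41 in the alopecia library, 12 in the no-alopecia library, 41 in the wild-type library) had a UMI of a receptor constant gene, Trac or Trdc, in 87.8%, 75% and 87.8% of cells. Members with at least 10 Gzmc UMIs (105, 41 and 77 cells) had one in 59.0%, 48.8% and 62.3%, although their median depth was higher (6413, 7201 and 6444 UMIs, against 4360, 3904.5 and 4123). They were therefore set beside cells of the same libraries with at least 10 Gzmc UMIs but no Cd3 UMI, a population chosen after the data were seen, of 244 cells in the alopecia library, 83 in the no-alopecia library and 135 in the wild-type library. In those cells the share with Trac or Trdc was 11.1%, 18.1% and 11.9%. At the other end, 59.8%, 45.8% and 56.3% of the Cd3-free cells had no UMI of Trac, Trdc or a counted V gene. The same held for 23.8%, 24.4% and 15.6% of the Gzmc-rich members. The beta and gamma constant genes, Tcrg-V4 and Tcrg-V6 were not part of this count.

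Trdc and Cd247 were lower, and Xcl1, Pik3r6, Samd3 and Tyrobp higher, in members with at least 10 Gzmc UMIs than in members with 2 or 3. Trdc, the delta constant gene (chr14:54142851-54148868), stood at 700.2, 576 and 435 CPM in members with 2 or 3 Gzmc UMIs of the alopecia, no-alopecia and wild-type libraries, at 172, 91.1 and 157 CPM in members with at least 10, and at 4.0, 6.29 and 2.87 CPM in the Cd3-free Gzmc-rich cells. Cd247, the zeta chain of the receptor complex, stood at 565, 520.0 and 409.9 CPM, then at 123, 91.1 and 185 CPM, and in the Cd3-free cells at 20.6, 34.6 and 35.3 CPM. Both genes were thus lower in Gzmc-rich members than in Gzmc-poor members of each library, and lower still in the Cd3-free cells. RNA of other cell types moved with them: among the 12 genes named as lower in Gzmc-rich members were the keratinocyte gene Lgals7 (5.42 against 514 CPM in the alopecia library, 84.9 against 449.7 CPM in the no-alopecia library and 10.5 against 69.1 CPM in the wild-type library), Apoe, Mt1 and the MHC class II genes Cd74, H2-Aa, H2-Ab1 and H2-Eb1. Their part in the lower receptor levels was not tested. Xcl1, a chemokine of cytotoxic lymphocytes (chr1:164931644-164935527), ran the other way, at 1102, 478 and 864 CPM, then 2228, 2269 and 2603 CPM, and 3552, 2729.7 and 3374 CPM in the Cd3-free cells. Pik3r6, a regulatory subunit of PI3K-gamma, Samd3, a SAM domain protein gene, and Tyrobp, the adaptor DAP12 of activating NK receptors, had the same order, with Pik3r6 at 14.0, 126 and 29.6 CPM, then 209, 251 and 275 CPM, and 327, 388 and 331 CPM. Trbc1, a beta constant gene that can be transcribed without a rearranged V gene, did not follow Trdc, at 271, 197 and 143 CPM in Gzmc-poor members, 291, 154 and 218 CPM in Gzmc-rich members and 267, 212 and 238 CPM in the Cd3-free cells. Trbc2, the other beta constant gene, was higher in Gzmc-rich members of each library, at 215, 141 and 227 CPM, then 313, 251 and 266 CPM. Ncr1, the NK receptor NKp46, was low throughout, at 27.1, 31.4 and 12 CPM in Gzmc-rich members and 62.3, 47.2 and 60.2 CPM in Cd3-free cells. The plot of levels by Gzmc shows these genes and 5 others.

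Few genes separated the Gzmc-rich members from Gzmc-rich cells without Cd3. Among 5581 genes that reached 20 UMIs over both populations in every library, 54 (0.968%) were at least 1.5-fold higher and 26 (0.466%) at least 1.5-fold lower in all 3 libraries. By the naming rule, Il1b, Cd209a, H2-Aa and Cd74, genes of myeloid and MHC class II-bearing cells, were among the higher ones beside Cd247 and Cd7, and Irf8, Kit, Ccr2 and Klrb1b among the lower ones. Between Gzmc-poor members and the same Cd3-free cells, 181 of 4702 genes (3.85%) were higher and 230 (4.89%) lower in all 3 libraries. Within the members, 89 of 3104 genes (2.87%) were higher and 78 (2.51%) lower with at least 10 Gzmc UMIs than with 2 or 3. The members are called T cells by the Cd3 genes that the rule asked for, so the name is not a finding. No further cell type name is given. The last receptor class counted below, 102 of 399 members (25.6%), had no Trac, Trdc or listed gamma V gene.

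Members took up a like share of each library. They made up 2.01% of the kept cells in the alopecia library (1.73 to 2.32%), 2.20% in the no-alopecia library (1.72 to 2.76%) and 2.19% in the wild-type library (1.85 to 2.58%). The ratio of shares was 0.915 for alopecia over no alopecia (0.693 to 1.22), 0.918 for alopecia over wild type (0.734 to 1.15) and 1.00 for no alopecia over wild type (0.745 to 1.34). No difference was detectable at these cell numbers, and each interval holds 1. Of cells with at least 2 Cd3 UMIs, members made up 3.46% in the alopecia library, 3.68% in the no-alopecia library and 3.14% in the wild-type library. After each cell was thinned to 2000 UMIs, with shallower cells left out (1391, 464 and 714), the shares were 2.74%, 3.27% and 3.31%. The rule was applied again to the thinned counts, so cells that had lost UMIs of an excluded gene could enter. It then chose 214, 92 and 191 cells, which are not the same set as the members.

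The members did not share 1 receptor. Sorted into exclusive classes by their receptor UMIs, 72 of 399 (18.0%) carried Tcrg-V5 and 75 (18.8%) carried Tcrg-V1, Trgv2 or Tcrg-V3 without Tcrg-V5. Another 64 (16%) carried Trdc with none of these gamma V genes. Trac or an alpha V gene with a beta V gene and no Trdc was carried by 56 (14.0%). Trac without a beta V gene or Trdc was carried by 30 (7.52%). The last class, 102 (25.6%), had no Trac, Trdc or these gamma V genes. They are called members without the listed receptor genes below, but could hold an alpha or beta V gene, Trdv4 or another constant gene. Of this class, 30 of 45 alopecia, 15 of 25 no-alopecia and 19 of 32 wild-type members had no other counted V gene. Trdc had a UMI in 91 of 185 alopecia members (49.2%), 27 of 72 no-alopecia members (37.5%) and 56 of 142 wild-type members (39.4%), against 4.10%, 3.54% and 5.24% of the cells without Cd3 UMIs, whose median depths were 3797, 4106 and 4238 UMIs. Trac, the alpha constant gene, had a UMI in 35.1%, 30.6% and 49.3% of members, against 6.66%, 6.37% and 10.7% of cells without Cd3 UMIs. Trac without Trdc was seen in 21.1% of alopecia members (15.4 to 27.7%), 19.4% of no-alopecia members (11.1 to 30.5%) and 32.4% of wild-type members (24.8 to 40.8%), and these intervals overlap. Trdc without Trac was seen in 35.1%, 26.4% and 22.5%, again with overlapping intervals. Overlap of separate intervals does not show that shares agree, and no ratio of these shares was computed. Both constant genes occurred together in 14.1%, 11.1% and 16.9%. Trbc1 was found in 61.1%, 43.1% and 53.5% of members and Trbc2 in 67.6%, 61.1% and 64.1%, so beta constant transcripts were seen in more members than Trac was.

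**Figure D1:**
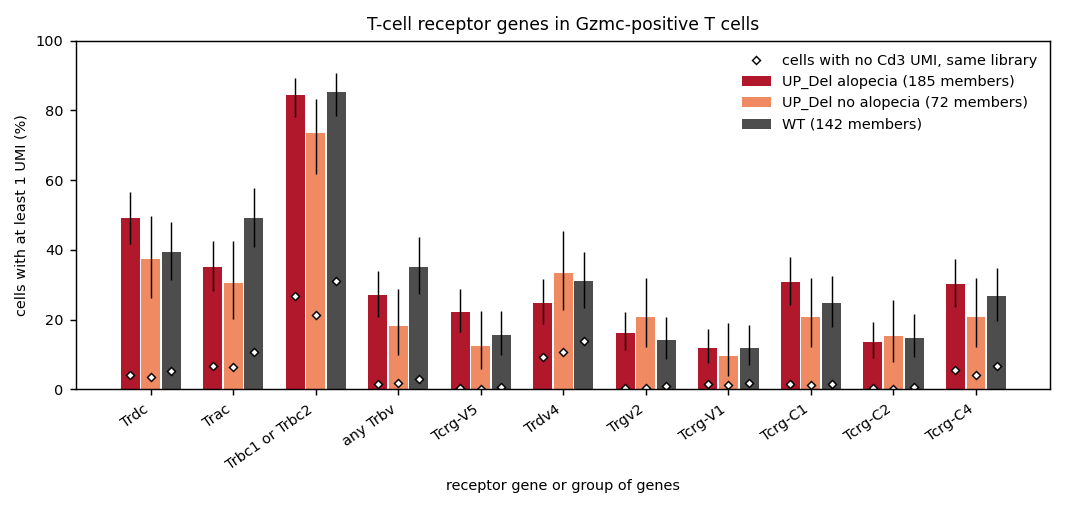
Percent of members with at least 1 UMI of each receptor gene or group of genes (y axis) in the alopecia, no-alopecia and wild-type libraries, with exact Clopper-Pearson 95% intervals; diamonds give the same share in cells of that library without Cd3 UMIs. Trdc reaches 49.2%, 37.5% and 39.4% and Tcrg-V5 22.2%, 12.5% and 15.5%, while the diamonds reach at most 5.24% for Trdc and 0.711% for Tcrg-V5.

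Tcrg-V5 (chr13:19192278-19192725) marked members that nearly all held the delta genes of the epidermal receptor. It was found in 41 of 185 alopecia members (22.2%, 16.4 to 28.8%), 9 of 72 no-alopecia members (12.5%, 5.88 to 22.4%) and 22 of 142 wild-type members (15.5%, 9.97 to 22.5%), against 0.493%, 0.265% and 0.711% of cells without Cd3 UMIs. Of the 72, 71 had Trdc and 70 (97.2%) had Trdv4, the delta V gene of the invariant epidermal receptor, against 44 of the 327 other members (13.5%). Tcrg-C1, the constant gene next to Tcrg-V5, was found in 62 of 72 (86.1%), against 45 of 327 (13.8%). None of the 72 had a Trav15-dv6 gene, a V gene that delta chains also use, against 26 of 327 others. The 72 were not free of other receptor genes: 42 (58.3%) had Tcrg-C4, against 20.5% of the others, 29 (40.3%) had Trac, 19 (26.4%) had Trgv2, against 14.1%, 12 had a beta V gene and 10 had Tcrg-V1. Trdv4 was found in 24.9%, 33.3% and 31.0% of members and is by itself a weaker marker, since 9.21%, 10.6% and 13.8% of cells without Cd3 UMIs had it too. Members with Tcrg-V5 had the most Cd3 UMIs (medians of 49, 37 and 30.5, against 6, 6 and 4 in members without the receptor genes listed) and few Gzmc UMIs (medians of 4, 6 and 11, against 46, 49 and 48). Members without the listed receptor genes had the highest median Gzmc of the 6 classes in each library, as the plot of Gzmc by receptor shows. Tcrg-V5 members had the lowest in the alopecia library alone, since 1 class was lower in the no-alopecia library and 3 were lower in the wild-type library.

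**Figure D2:**
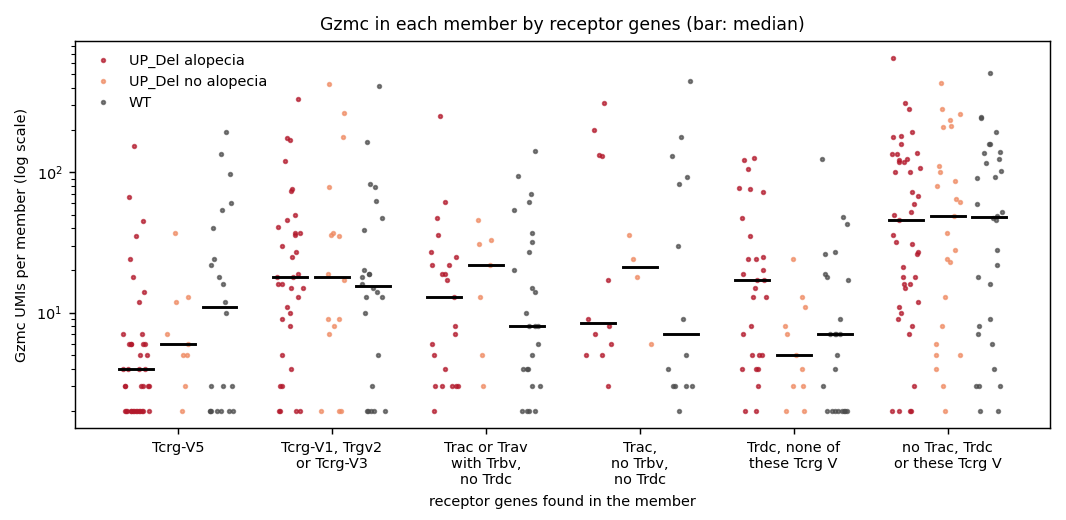
Gzmc UMIs of each member (points, log y axis) by the receptor genes found in it (x axis), for the alopecia, no-alopecia and wild-type libraries from left to right in each class; black bars are medians. Members with Tcrg-V5 have medians of 4, 6 and 11. Members of the last class, without Trac, Trdc or these gamma V genes, have medians of 46, 49 and 48.

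The other gamma V genes were found with several constant genes. Trgv2 had a UMI in 30 of 185 alopecia members (16.2%), 15 of 72 no-alopecia members (20.8%) and 20 of 142 wild-type members (14.1%), against 0.339%, 0.531% and 1.03% of cells without Cd3 UMIs. Tcrg-C2, the constant gene of the cluster that holds Trgv2, was found in 25 of those 65 members (38.5%), against 9.58% of the 334 others, and Tcrg-C1 in 26 (40%), against 24.3%. Tcrg-V1 had a UMI in 22 of 185 alopecia members (11.9%), 7 of 72 no-alopecia members (9.72%) and 17 of 142 wild-type members (12%), and Tcrg-C4, the constant gene next to it, was found in 20 of those 46 (43.5%), against 25.2% of the 353 others. Tcrg-C2 was seen in 3 of the 46 Tcrg-V1 members, although the V exons of Trgv2 and Tcrg-V1 printed above are nearly identical. The delta side of these members was not uniform: Trdv4 occurred in 25 of the 65 Trgv2 members and 16 of the 46 Tcrg-V1 members, Trav15-dv6 genes in 10 and 8, and Trdv2-2 was seen in 19 of 399 members.

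The alpha and beta V genes found among the members were diverse. Beta V genes were found in 113 members, spread over 20 of the 35 annotated genes, with no gene above 15 members (Trbv12-2 and Trbv13-1, with Trbv13-2 in 14). Of these 113, 76 (67.3%) had Trac, 28 (24.8%) had Trdc and 12 (10.6%) had Tcrg-V5. A beta V gene alone therefore does not make a member an alpha-beta T cell. Alpha V genes without a delta name were found in 52 members, spread over 40 of 118 genes, with Trav12-2 in 6. Of those 52 members, 44 (84.6%) also had a beta V gene, against 19.9% of the 347 others. Most members with an alpha V gene thus held a beta V gene as well. Cd4, the coreceptor of helper T cells, stood at 15.7, 26.4 and 21.3 CPM in the alopecia, no-alopecia and wild-type members, and Cd8a had 10, 1 and 12 UMIs in all, in cells that the rule had cleared of Cd8b1.

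The receptor classes differed in other genes as well. Kcnma1, a potassium channel gene, stood at 707, 509 and 247 CPM in Tcrg-V5 members of the alopecia, no-alopecia and wild-type libraries, against 6.63, 0 and 14.2 CPM in members without the listed receptor genes. Fermt2, the integrin adaptor kindlin-2, stood at 411, 254 and 241 CPM in Tcrg-V5 members and at 0, 0 and 9.48 CPM in the members without. Klrb1b, an inhibitory NK-type receptor gene, stood at 396, 254 and 312 CPM, against 46.4, 33.2 and 37.9 CPM. Pik3r6 and Tyrobp had the reverse order in each library, with Pik3r6 at 14.8, 81.4 and 100.1 CPM in Tcrg-V5 members, against 229, 315 and 375 CPM. Xcl1 did not follow receptor class, at 2127, 2187 and 3067 CPM in Tcrg-V5 members, against 1809, 1393 and 3224 CPM in members without the listed genes.

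Of the granzyme genes, Gzmc stood highest in each library, but the rule asked for Gzmc, so its rank is description only. Gzmb and Gzma stood far below it. Gzmb, the main granzyme of cytotoxic T cells and 76.7% identical to Gzmc in coding sequence, stood at 76.1 CPM in alopecia members, 6.09 CPM in no-alopecia members and 288 CPM in wild-type members, and 1 member per library held 47.1%, 66.7% and 68.3% of those UMIs. Only 7.03%, 2.78% and 22.5% of members had a Gzmb UMI. Gzma stood at 137, 0 and 45.7 CPM, with 98.1% of the alopecia UMIs and 100% of the wild-type UMIs in 1 member each. Gzmd, Gzme, Gzmf and Gzmm had between 0 and 4 UMIs in a library, and Gzmg, Gzmk and Gzmn had none. Prf1 was found in 36.8%, 40.3% and 38.0% of members, at 130.3, 132 and 109.6 CPM. Nkg7, a granule membrane protein, stood at 1134, 1023 and 740.0 CPM, and Ctsw, a protease of cytotoxic cells, at 1576, 1971 and 1408 CPM. Of the 2 death ligands, Tnfsf10 (TRAIL) stood at 149, 128 and 147 CPM and Fasl at 17.5, 4.06 and 24.4 CPM. The cells thus had granule genes and Prf1 beside Gzmc, and Gzmb, the other granzyme seen beyond a few cells, was found in 32 of 142 wild-type members, at 92.3 CPM without the member that held the most.

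Xcl1 was the leading chemokine, found in 87.0%, 84.7% and 83.8% of alopecia, no-alopecia and wild-type members. Areg, a growth factor of the EGF family, stood at 424, 485 and 511 CPM, Tgfb1 at 600.1, 887 and 829 CPM, and Ccl5 at 352, 272 and 424 CPM. Of NK-type receptors and adaptors, Fcer1g stood at 2029, 1884 and 1385 CPM, Hcst at 865, 678 and 705 CPM, Klrd1 at 361, 223 and 239 CPM, and Klrk1 (NKG2D, which binds stress ligands) at 291, 306 and 345 CPM, while Ncr1 stood at 17.5, 24.4 and 12.2 CPM. Of the residency genes, Itgae, the integrin chain CD103 that binds epithelial cadherin, was found in 92.4%, 94.4% and 84.5% of members, and Rgs1 stood at 1581, 1626 and 1751 CPM. Ccr10, a receptor that guides T cells into epidermis, was low at 14.9, 8.12 and 3.05 CPM. Among transcription factors, Ikzf2 stood at 424, 394 and 620.2 CPM, Tox at 296, 278 and 318 CPM, Runx3 at 231, 217 and 238 CPM, and Tbx21 at 183, 274 and 178 CPM. Eomes had 4, 4 and 9 UMIs, close to absent at this depth.

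The members were set against T cells of the same libraries that met the other clauses of the rule, had no Gzmc UMI and had a Tcrg-V5 or Trdv4 UMI (656, 204 and 459 cells in the alopecia, no-alopecia and wild-type libraries). Of 8374 genes, 253 (3.02%) were at least 1.5-fold higher and 712 (8.5%) at least 1.5-fold lower in members in all 3 libraries, with median log2 ratios over all genes of -0.18, -0.14 and -0.18. RNA of other cell types moved with this comparison: 8 of 10 keratinocyte markers tested were lower in members in all 3 libraries, with summed levels of 558 against 2608 CPM in the alopecia library, 1368 against 4449 CPM in the no-alopecia library and 107 against 5142 CPM in the wild-type library, and macrophage markers had median log2 ratios of -1.08, -1.04 and -1.0. Its part in the other differences was not tested. Pglyrp1, an antibacterial peptidoglycan-binding protein, led the higher genes, at 356 CPM in members against 18.0 CPM in the alopecia library, 406 against 13.1 CPM in the no-alopecia library and 312 against 14.3 CPM in the wild-type library. Tbx21, the transcription factor T-bet, was higher by log2 3.39, 4.75 and 2.83, the integrin genes Itga1 by 3.43, 3.11 and 3.17 and Itgax by 3.48, 3.34 and 3.47, and Cd27, a costimulatory receptor, by 2.69, 2.94 and 3.29. Ms4a4b, Ccdc184, Pik3r6, Igflr1, Hvcn1, Dscam and Edaradd completed the 12 named higher genes. Lower in members were Cd163l1, a receptor gene of dermal gamma-delta T cells, at 54.2 against 350.0 CPM, 24.4 against 160.4 CPM and 54.8 against 512 CPM, the cytokine gene Il17f by log2 -3.86, -2.54 and -4.53, the kinase gene Blk by -3.06, -3.81 and -2.51, and the inhibitory receptor gene Pdcd1 by -3.61, -3.65 and -1.82. Kcnma1, Fermt2, Actn2, Hlf, Col27a1, Adgrg1, Unc5b and Ncald were the other 8.

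By list, 7 of 17 NK-type receptor and adaptor genes were higher in members in all 3 libraries (among them Klrc1, Cd160 and Tyrobp) and 1, Klrb1b, was lower. In the residency list 5 of 13 were higher (Itgae, Itga1, Ccr8, Zfp683 and Jaml) and 3 lower (Cxcr6, Ahr and Cd7). Of 15 cytokine genes 4 were higher (Xcl1, Ccl5, Ifng and Tgfb1) and 3 lower (Il17a, Il17f and Tnfsf11). Of 20 lineage transcription factors 2 were higher, Tbx21 and Ikzf2, and 7 lower, among them Zbtb16 and Maf. These counts stand beside the background of 3.02% higher and 8.5% lower among all genes. The comparison cells were chosen by Tcrg-V5 and Trdv4, which most members lacked.

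**Figure D3:**
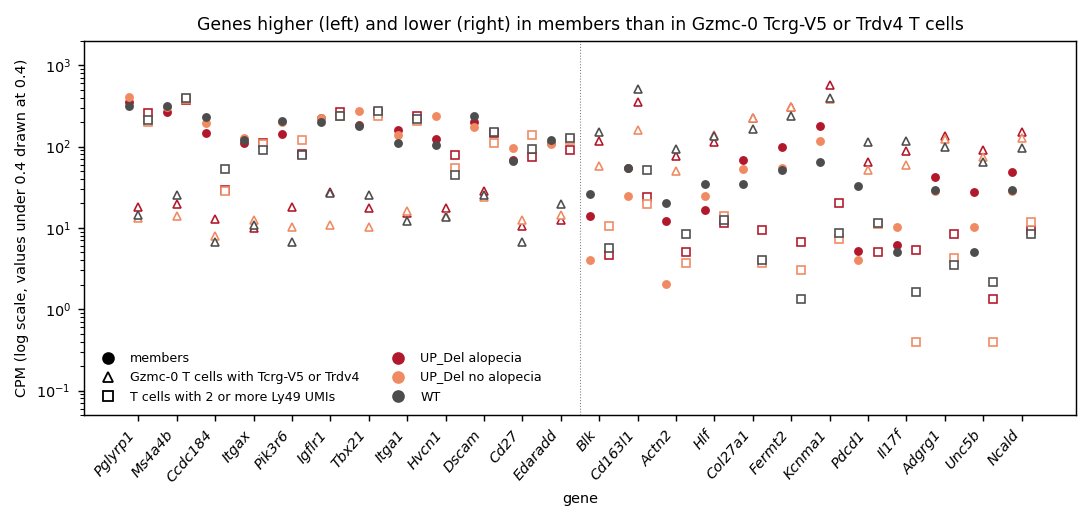
CPM on a log axis of the 12 genes named as higher and the 12 named as lower in members (filled circles) than in Gzmc-0 T cells with Tcrg-V5 or Trdv4 (triangles), with T cells of at least 2 Ly49 UMIs (squares) for comparison; colours are the libraries. For each of the higher genes the Ly49-bearing T cells lie above the Gzmc-0 cells of their library, and for Kcnma1 and Fermt2 they lie below the members.

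T cells with at least 2 Ly49 UMIs (560, 258 and 626 cells) were closer to the members. Of 7982 genes, 170 (2.13%) were higher and 80 (1%) lower in members in all 3 libraries. Here too other cells' RNA moved along: 3 of 7 Langerhans and MHC class II markers (H2-Ab1, Cd74 and H2-DMa; median log2 ratios over the list of 0.58, 0.94 and 0.97) and 2 of 5 macrophage markers (Adgre1 and Mrc1; 0.59, 1.38 and 1.01) were higher in members in all 3 libraries, and their part in the other differences was not tested. Of 14 residency genes 0 were higher and 1, Ccr10, lower, with medians of -0.22, -0.46 and -0.22. The Ly49 cells held Gzmc too, at 4499, 2868 and 3237 CPM. Higher in members were Kcnma1, by log2 3.14, 4.0 and 2.89, Klrb1b, at 122 against 26.2 CPM, 77.1 against 17.8 CPM and 103 against 18.6 CPM, and Areg, by 1.23, 1.07 and 1.18. Both Kcnma1 and Klrb1b were highest in the Tcrg-V5 class among the members of each library. Lower in members were the chemokine gene Ccl5, at 352 against 1117 CPM, 272 against 1021 CPM and 424 against 834 CPM, and the chemokine receptor gene Cxcr3, by -0.96, -0.84 and -0.74. Eomes was the lower one of 20 lineage transcription factors, with Batf the higher one.

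Between the groups genes were called by fold alone, and small sums can pass a fold by counting error, whose share among the calls below was not separated. Of 7549 genes, 1005 (13.3%) were at least 1.5-fold higher and 783 (10.4%) at least 1.5-fold lower in alopecia than in no-alopecia members. Alopecia over wild type gave 1068 of 8176 (13.1%) higher and 773 (9.45%) lower, and no alopecia over wild type 857 of 7105 (12.1%) higher and 941 (13.2%) lower. The 2 comparisons with wild type share its library. Named genes are those whose interval bound lay farthest from 1.

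Il2ra (chr2:11642807-11693193), whose upstream enhancer UP_Del mice lack, was lower in both UP_Del libraries. It stood at 52.5 CPM in alopecia members and 89.3 CPM in no-alopecia members, against 187 CPM in wild-type members, and 19.5%, 26.4% and 36.6% of members had a UMI. The log2 ratio was -1.83 for alopecia over wild type (-2.28 to -1.40), -1.06 for no alopecia over wild type (-1.57 to -0.58) and -0.77 for alopecia over no alopecia (-1.35 to -0.17). The direction against wild type was shared by the other populations of the same libraries. For alopecia and no alopecia over wild type it was -0.72 and -1.06 in the Gzmc-0 T cells, -1.40 and -1.24 in the Ly49-bearing T cells and -1.01 and -1.19 in cells without Cd3 UMIs. For alopecia over no alopecia the log2 ratios in those populations were 0.34 (0.07 to 0.61), -0.16 (-0.61 to 0.31) and 0.18 (0.00 to 0.36), and whether they differed from that in the members was not tested. Il2rb stood at 1024, 1250.3 and 1225 CPM and Il2rg at 640.3, 767 and 637 CPM. Neither passed 1.5-fold between libraries, but smaller differences are not excluded, since their intervals are not given here.

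Of 17 genes of the common gamma-chain receptors and JAK-STAT5 signalling, 0 were higher and 6 lower in alopecia than in wild-type members (Il2ra, Il21r, Stat5a, Cish, Pim1 and Myc), with a median log2 ratio of -0.43 against 0.04 over all genes. In no-alopecia over wild-type members 7 were lower (Il2ra, Il21r, Stat5a, Stat5b, Cish, Bcl2 and Pim1) and 1, Socs3, higher, with a median of -0.32 against -0.00. Cish, a feedback gene that STAT5 induces, stood at 61.2, 48.7 and 106 CPM, and Pim1, a kinase gene that STAT5 also induces, at 306, 288 and 467 CPM in alopecia, no-alopecia and wild-type members. In alopecia over no-alopecia members 1 was higher (Bcl2) and 4 lower (Il2ra, Jak3, Socs3 and Myc). Of all genes, 13.1% were higher and 9.45% lower for alopecia over wild type. The shares were 12.1% and 13.2% for no alopecia over wild type, and 13.3% and 10.4% for alopecia over no alopecia.

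Ly6e, Apobec3 and Ehd3 differed between both UP_Del libraries and the wild-type library in each population measured. Ly6e (chr15:74955051-74959905), a membrane protein gene that interferon can induce, stood at 137 CPM in alopecia members and 83.2 CPM in no-alopecia members, against 1556 CPM in wild-type members, and was found in 29.2%, 25% and 96.5% of members. The log2 ratios were -3.50 (-3.75 to -3.26) and -4.22 (-4.71 to -3.78), and between -2.79 and -3.49 in the other 3 populations. Apobec3 (chr15:79891659-79915906), a cytidine deaminase that restricts retroviruses, stood at 13.1 and 6.09 CPM, against 99.5 CPM in wild-type members. Ehd3 (chr17:73804134-73832094), an endosomal trafficking gene, was higher in the UP_Del libraries, at 155 and 199 CPM against 45.7 CPM in wild-type members, by log2 1.76 and 2.12, and by 1.62 to 2.15 in the other populations. These genes therefore set the libraries apart beyond the members, and the cause was not tested.

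**Figure D4:**
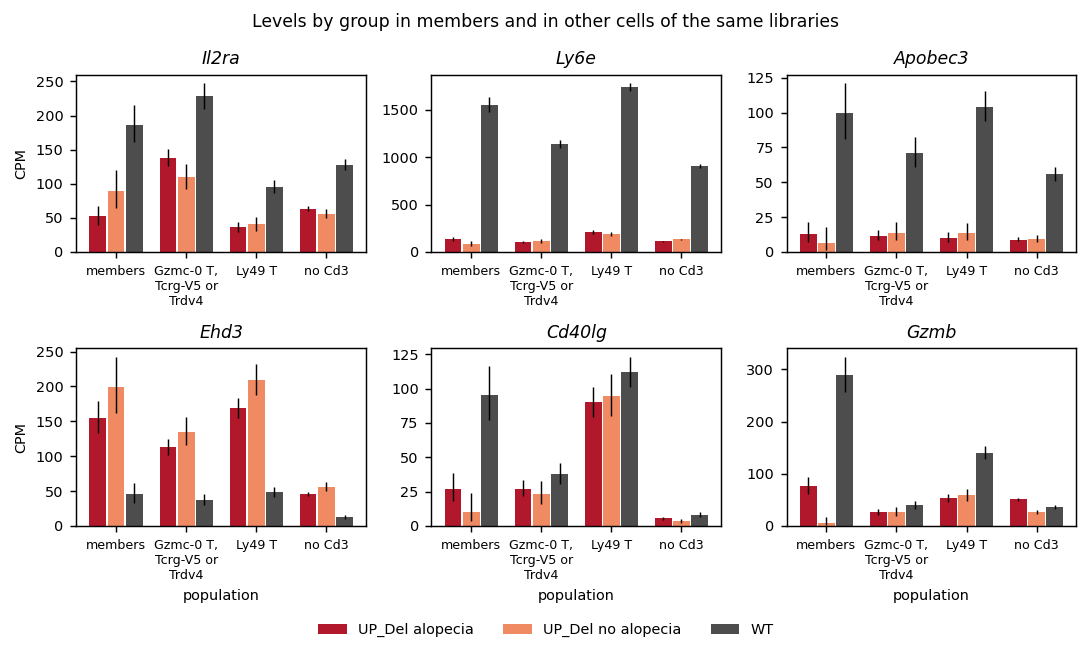
CPM (y axis) of 6 genes in members, in Gzmc-0 T cells with Tcrg-V5 or Trdv4, in T cells with at least 2 Ly49 UMIs and in cells without Cd3 UMIs (x axis), as bars for the alopecia, no-alopecia and wild-type libraries with exact Poisson 95% intervals. Il2ra, Ly6e and Apobec3 are lower and Ehd3 higher in both UP_Del libraries in each population, while Cd40lg differs most in the members. Gzmb in members rests on 3 no-alopecia UMIs and on 1 wild-type member with 68.3% of the UMIs.

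Cd40lg and Cd6 fell further below wild type in the members than in the populations beside them. Cd40lg, the CD40 ligand, stood at 27.1 CPM in alopecia members and 10.1 CPM in no-alopecia members, against 95.4 CPM in wild-type members (log2 -1.81 and -3.23), and its ratios in the other populations lay between -0.24 and -1.21. Cd6, a T-cell adhesion receptor, stood at 9.62 and 24.4 CPM, against 72.1 CPM (log2 -2.90 and -1.57), with ratios of -0.83 to 0.14 elsewhere. Few cells carried either gene. Cd40lg had 5 UMIs in 4.17% of no-alopecia members, against 94 UMIs in 22.5% of wild-type members. Cd6 had 11 UMIs in 3.78% of alopecia members, against 71 UMIs in 14.1% of wild-type members. Trac without Trdc was seen in 21.1%, 19.4% and 32.4% of alopecia, no-alopecia and wild-type members, and its part in these ratios was not tested. Trmt61b, a mitochondrial RNA methyltransferase gene, stood at 47.2 and 12.2 CPM, against 123 CPM. Ifng stood at 109 and 56.8 CPM, against 247 CPM (log2 -1.17 and -2.12), with log2 ratios of 0.06 and -0.18 in the Ly49-bearing T cells. Ratios of Trmt61b and Ifng in the remaining populations are not given here. Whether the members differed from the other populations in these ratios was not tested. Gzmb was lower by -1.92 and -5.57 against wild type, but 68.3% of the wild-type UMIs lay in 1 member and the no-alopecia members held 3 UMIs. Ctla4 and Hist1h1b, lower in alopecia than in wild-type members by -2.55 and -2.33, likewise had 38.5% and 53.7% of their wild-type UMIs in 1 member.

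Between alopecia and no-alopecia members, 2 of the 10 genes named as higher were broadly distributed. Ypel3 stood at 159 CPM in alopecia members, against 69.0 CPM in no-alopecia members (log2 1.21, 0.67 to 1.78), in 53.5% and 40.3% of members. Bcl2, which protects lymphocytes from death, stood at 119.8 CPM, against 52.8 CPM (log2 1.18, 0.57 to 1.85), and was also higher in the other populations, by 0.54, 1.40 and 1.33. Slc15a2, a peptide transporter gene, and Tcf4, a transcription factor gene, were in 17.3% and 20.5% of alopecia members, against 4.17% and 11.1% of no-alopecia members. The other 6 rested on few cells. Gzmb had 3 UMIs in no-alopecia members, Ccr7 was found in 5.95% of alopecia members, and Il17a in 3.24%, with 53.3% of its UMIs in 1 of them. Retnla and Defb6 had 95.1% and 95.3% of their alopecia UMIs in 1 member, and Cd209d, a gene of myeloid cells, was in 12.4% of alopecia and 12.5% of no-alopecia members. Among the 10 lower genes, Serpinb1a, a protease inhibitor, stood at 40.2 CPM, against 146 CPM (log2 -1.86), in 12.4% and 29.2% of members. Hist1h1e, a linker histone gene, stood at 91.0 CPM, against 284 CPM (-1.64), and was lower in the other populations too, by -1.57, -0.70 and -0.92. Hist1h1d, Hist1h1b, Hist1h2bc, Fosl1, Palld, Krt15 and Hspb1 were also among them, and 1 member held between 36.4% and 76.6% of their UMIs in the no-alopecia library.

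Among the lists, the cytokine genes gave the following counts. Of 15 tested, 2 were higher (Ltb and Il17a) and 5 lower in alopecia than in wild-type members (median log2 -0.38), beside 13.1% and 9.45% of all genes. Of 14, 0 were higher and 9 lower in no-alopecia than in wild-type members (median -0.69), beside 12.1% and 13.2% of all genes. Alopecia over no alopecia had 4 of 13 higher (Ifng, Ltb, Il17a and Csf2) and 0 lower, beside 13.3% and 10.4% of all genes. Counts of the lists that follow stand beside the same shares of all genes where the number tested is given. The lists are short, so a small excess over these shares is no result about a list. Genes of granules, NK-type receptors, residency, T-cell receptor signalling, PI3K-gamma signalling, egress and immediate early responses had at most 5 genes of a list past 1.5-fold in 1 direction in each comparison. In that order the lists held 20, 23, 15, 22, 13, 8 and 23 genes before the minimum of 20 UMIs. Their numbers tested are not given here, so no share of a list is read from this. Against wild type the inhibitory receptor genes Pdcd1, Ctla4 and Btla were lower in both UP_Del groups, of 9 tested in alopecia members, where 0 were higher, and 8 in no-alopecia members, where Lag3, Tigit and Cd101 were higher. Of the type I interferon list 3 of 6 were lower in alopecia members (Isg15, Irf7 and Ifi27l2a) and 2 of 5 in no-alopecia members, with 0 higher in both, and of the interferon gamma list 3 of 16 and 4 of 12 were lower, with Irf1 higher in no-alopecia members. Of the lineage transcription factors 5 of 18 and 5 of 19 were lower than in wild-type members, with 0 higher in alopecia members and 2, Tbx21 and Egr2, higher in no-alopecia members. Cell cycle genes were lower in alopecia than in wild-type members in 11 of 15 (median -1.21). For no alopecia over wild type 7 of 15 were lower (median -0.42). However, 1 wild-type member held 27.3% of the list's UMIs. The top 5 members held 35.5% of them in alopecia, 52.8% in no alopecia and 69.7% in wild type. The share of members with at least 10 of the list's UMIs was 9.19% in alopecia, 13.9% in no alopecia and 7.04% in wild type.

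RNA of other cell types differed between the groups as well. Keratinocyte markers summed to 558 CPM in alopecia members and 1368 CPM in no-alopecia members, against 107 CPM in wild-type members, with 12, 9 and 9 of 12 markers seen, and 56.6%, 50.3% and 31.4% of the UMIs lay in 1 member. Langerhans and MHC class II markers summed to 7318 and 7798 CPM, against 4437 CPM, with 8 of 8 seen in each library, and 21.6%, 29.2% and 18.3% of members held at least 10 of their UMIs. Macrophage markers summed to 543 and 727 CPM, against 266 CPM, mast cell markers to 181 and 205 CPM, against 72.1 CPM, and fibroblast markers to 276 and 0 CPM, against 1.02 CPM, 314 of the 316 alopecia UMIs being in 1 member. Dermal gamma-delta T-cell markers summed to 248 and 122 CPM, against 208 CPM, regulatory T-cell markers other than Foxp3 to 802 and 761 CPM, against 1343 CPM, NK and type 1 innate lymphoid markers to 346 and 207 CPM, against 237 CPM, and group 2 innate lymphoid markers to 721 and 824 CPM, against 1093 CPM. CD4 and CD8 markers summed to 24.5 and 28.4 CPM, against 33.5 CPM. B-cell markers had 1, 0 and 3 UMIs and erythroid markers 2, 2 and 0. The genes named as higher against wild type were, besides Ehd3, Mt2 (log2 1.99), Cd209e (2.5), Apod (2.18) and Ccr7 (2.03) in alopecia members and Mt2 (3.05), Sfn (2.82), Mt1 (2.30), Palld (2.65) and Hspb1 (2.21) in no-alopecia members. Krt15, Hspb1, Sfn, Mt1, Mt2, Palld, Retnla, Cd209d, Cd209e and Apod stood higher in cells without Cd3 UMIs of the same library, except Palld in the no-alopecia library and Cd209e in the alopecia library. The part of other cells' RNA in their differences was not tested. Leaving out the member with the most UMIs of a gene in each library left 9 of the 10 higher and 10 of the 10 lower genes of alopecia over no alopecia past 1.5-fold, Defb6 being the exception, and 5 of 5 each way against wild type. Of the 10 lower genes 9 kept an interval that excludes 1, since Hist1h1b moved to a ratio of 0.498 (0.214 to 1.18), and Retnla then stood at 10.5 CPM in alopecia members against 0 UMIs in no-alopecia members.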

How the data were processed

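CD45-positive cells of whole skin were profiled with 10x 5′ single-cell RNA sequencing, 1 library per group, and 3 of the 6 libraries of the series were used. The authors deposited raw UMI counts per gene and barcode, made with Cell Ranger 7.1.0 on mm10 per the submitters' processing notes. A barcode was kept from 500 UMIs and 300 genes on, unless mitochondrial UMIs exceeded 10%. Scrublet scored doublets (scanpy 1.11.5) at 0.4% per 1000 barcodes, since its automatic threshold marked 0, 4 and 0 cells, and the marked cells were not removed. Gene positions and V exons came from GENCODE vM21 on GRCm38, which matched 99.6% of the gene IDs.

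UMIs were summed over the cells of a population and library and divided by its total (CPM), using Python 3.11.15, numpy 2.4.6, scipy 1.17.1, pandas 2.3.3 and matplotlib 3.10.9. Genes reaching 20 UMIs over both sums were compared, a gene being called at a ratio of at least 1.5. No p-value was computed, because each group had 1 library. Named genes reached 50 UMIs over both sums and 50 CPM in the higher one, excluded mitochondrial, ribosomal, hemoglobin, immunoglobulin, receptor, sex-linked, unnamed and rule genes, and were ranked by the interval bound nearer 1 (10 each way between UP_Del groups, 5 against wild type, 12 against other T cells in all 3 libraries). Genes below 5% of their CPM in cells without Cd3 UMIs were skipped. The members, gene lists and named genes always reported were chosen with earlier results of these data known. The calculations were tested on simulated data. Alternatives changed the cell filters, the thresholds of the rule, the depth of cells, the summed-count minimum and the normalization. Some genes that the naming rule or a list selects are not reported here.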

Additional observations from a re-analysis of the deposited data

How the results depend on the processing

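No paired analysis was possible because each group had 1 library. The share of members among kept cells was 2.86%, 3.05% and 3.18% with at least 1 Gzmc UMI in the alopecia, no-alopecia and wild-type libraries. It was 2.74%, 3.27% and 3.31% in cells thinned to 2000 UMIs, where the rule was applied again and chose a different set of cells. With at least 4 Gzmc UMIs it was 1.56% in alopecia and 1.56% in wild type, and with at least 4 Cd3 UMIs 1.65% in alopecia and 1.68% in wild type. Of T cells it was 3.46%, 3.68% and 3.14%. Trdc was found in 48.6% of wild-type members with at least 4 Cd3 UMIs. After thinning of the members chosen before thinning, Trdc was found in 36.8%, 24.2% and 29.0% and Trac in 20.9%, 13.6% and 32.6% of them. When 50 UMIs over both sums were asked for, 387 genes were higher and 300 lower in alopecia than in no-alopecia members, 422 higher and 379 lower than in wild-type members, and 309 higher and 402 lower in no-alopecia than in wild-type members. Among members with Tcrg-V5 or Trdv4, 491 genes were higher in no alopecia than in wild type. Among cells of 2000 to 8000 UMIs, 410 genes were lower than in Gzmc-0 T cells and 108 higher than in Ly49-bearing T cells. Retnla turned lower in alopecia than in no-alopecia members, to log2 -3.33 with at most 5% mitochondrial UMIs, -1.78 with at least 1 Gzmc UMI, -1.88 without C1q or Cd207 UMIs, -5.42 with at least 4 Cd3 UMIs, -1.21 with at least 10 Gzmc UMIs and -2.21 with Trac or Trdc. Defb6 turned to -0.72 with at least 4 Gzmc UMIs and -0.84 without the member with the most UMIs. The causes were not tested, beyond the fewer genes or cells that an alternative keeps. Of the gene values between groups 533 moved by less than counting error, 96 moved and 8 reversed, unevenly over the settings: of 40, 18 moved and 1 reversed with at least 1 Gzmc UMI, of 39, 19 moved and 1 reversed with at least 10, and of 39, 16 moved among members with Tcrg-V5 or Trdv4. Against other T cells 347 stayed and 85 moved, 56 of them in cells of 2000 to 8000 UMIs. The alternatives with at least 4 Cd3 UMIs, with at least 10 Gzmc UMIs, with Trac or Trdc, and without the top member were chosen after seeing the data. The 72 no-alopecia members give wider intervals than the 185 and 142 of the other libraries.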
